A study of Mus musculus with 12 samples.

Results

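The genes described here are general macrophage markers in mouse ear skin, namely the C1q chain genes C1qa, C1qb and C1qc, the surface receptors Fcgr1, Itgam, Mertk, Csf1r and Adgre1, and the lysosomal genes Cd68 and Lyz2. The 10 genes were taken by symbol from a table of 24532 genes, and all 10 were abundant enough to be tested. Bulk RNA sequencing of the whole ear skin gave 12 libraries, in 4 groups of 3: germ-free (GF) skin with MC903, GF skin with ethanol, specific-pathogen-free (SPF) skin with MC903 and SPF skin with ethanol. The agent MC903, or calcipotriol, is an analogue of vitamin D that inflames mouse skin in a way that resembles atopic dermatitis, and ethanol is its vehicle. The labels speak of 5 treatments in wording that fits more than 1 schedule, and give no sex or age. The strain reads C57BL/6 for 9 libraries, while GF MC903 4, GF ethanol 5 and GF MC903 5 carry numbers that count up from it, and no other allele or agent is named for any group. SPF libraries are numbered 1, 2 and 3 and GF libraries 1, 4 and 5. Whether libraries of a group came from separate mice is not stated, so every p-value below measures the spread between these libraries, which may be technical.

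Macrophages reside in the dermis and are joined there by monocytes from the blood when skin is inflamed. C1q is a secreted protein built from A, B and C chains, made largely by macrophages and dendritic cells. It binds antibody complexes and dying cells and starts the classical complement cascade. Fcgr1 encodes the high-affinity IgG receptor CD64, Itgam the alpha chain CD11b of complement receptor 3, and Mertk a kinase receptor through which macrophages take up apoptotic cells. Csf1r is the receptor for the growth factors CSF1 and IL-34 on which macrophages and Langerhans cells depend. Adgre1 encodes F4/80, the classic mouse macrophage surface marker, Cd68 a glycoprotein of late endosomes and lysosomes, and Lyz2 lysozyme. Several are shared with other cells: Itgam and Lyz2 are also strong in neutrophils, and Csf1r in Langerhans cells.

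The 3 C1q genes lie side by side on mouse chromosome 4 (GRCm38.p6), C1qb at chr4:136880126-136886200, C1qc at chr4:136889801-136892936 and C1qa at chr4:136895916-136898844. Promoters are shown for C1qb and C1qc, as neighbours that rose together, for Fcgr1, with the largest rise of the 10 genes, for Lyz2, which had no called response, and for Mertk, with the largest fall. Each is the 250 bases before the start site that the RefSeq promoter table (GRCm38.p6) uses, on the gene's own strand; for C1qc that site lies slightly inside the gene's span, so its window overlaps the first bases of the gene. They lie at chr4:136886201-136886450 (C1qb), chr4:136892915-136893164 (C1qc), chr3:96293970-96294219 (Fcgr1), chr10:117282273-117282522 (Lyz2), all on the minus strand, and at chr2:128698665-128698914 (Mertk, plus strand). Capitals mark matches on either strand to AGGAAGT, a site of the kind read by the myeloid factor PU.1, or to the shorter PU.1 box core GAGGAA, whose matches can overlap the first.
C1qb: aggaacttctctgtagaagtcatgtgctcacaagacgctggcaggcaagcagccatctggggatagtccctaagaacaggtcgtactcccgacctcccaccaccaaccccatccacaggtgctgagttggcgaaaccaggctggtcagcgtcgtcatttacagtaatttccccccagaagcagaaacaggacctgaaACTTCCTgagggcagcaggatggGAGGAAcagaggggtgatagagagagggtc
C1qc: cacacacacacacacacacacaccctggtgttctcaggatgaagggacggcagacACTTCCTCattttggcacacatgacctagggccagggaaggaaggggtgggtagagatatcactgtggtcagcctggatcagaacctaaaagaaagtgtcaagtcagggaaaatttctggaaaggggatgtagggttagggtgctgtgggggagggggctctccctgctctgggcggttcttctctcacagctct
Fcgr1: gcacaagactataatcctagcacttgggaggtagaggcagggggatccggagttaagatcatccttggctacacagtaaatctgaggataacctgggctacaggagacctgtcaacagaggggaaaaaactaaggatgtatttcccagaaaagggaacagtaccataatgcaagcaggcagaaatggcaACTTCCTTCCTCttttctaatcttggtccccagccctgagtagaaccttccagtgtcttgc
Lyz2: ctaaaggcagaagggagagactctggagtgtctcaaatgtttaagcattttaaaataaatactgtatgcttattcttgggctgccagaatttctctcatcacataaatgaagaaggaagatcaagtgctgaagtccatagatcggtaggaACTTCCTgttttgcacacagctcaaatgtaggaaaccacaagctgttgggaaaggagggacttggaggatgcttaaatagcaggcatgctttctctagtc
Mertk: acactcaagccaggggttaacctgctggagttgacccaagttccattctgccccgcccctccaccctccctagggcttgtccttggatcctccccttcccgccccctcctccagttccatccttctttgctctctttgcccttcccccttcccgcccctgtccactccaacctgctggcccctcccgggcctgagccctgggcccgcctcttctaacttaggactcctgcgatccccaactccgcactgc

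Promoters of 7 of the 10 genes were scanned. C1qa and Adgre1 had no entry in the RefSeq promoter table, and Csf1r was left out of the scan. AGGAAGT was in 4 of the 7, those of C1qb, C1qc, Fcgr1 and Lyz2, and in 7.69% of 32851 promoters of the same length. GAGGAA was in 5 of the 7, those of C1qb, C1qc, Fcgr1, Itgam and Cd68, against 23.3% of all promoters. The AP-1 motif TGANTCA was in 1 of the 7, that of Cd68, against 6.75%. Counted from the start site, the AGGAAGT match ended at -47 in C1qb, -55 in Fcgr1, -94 in Lyz2 and -189 in C1qc. None of the 3 motifs occurred in the Mertk window. These matches are letters in a window and say nothing of binding.

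Each library held 36358294 to 48225425 estimated counts. None of the 8 keratinocyte genes listed was at 0 in all 12 libraries. Their summed levels were 63384 to 66187 CPM with MC903 and 28785 to 33261 CPM with ethanol in GF skin. In SPF skin they were 50503 to 61786 CPM and 25300 to 27539 CPM. CPM here means estimated counts scaled to a common library size after TMM scaling, which sets the bulk of genes level between libraries. Changes are log2 fold changes with their standard error (SE), and a gene was called at an adjusted p below 0.05 in edgeR's quasi-likelihood test with Benjamini-Hochberg adjustment over 16466 tested genes. With MC903, 5497 of these rose and 5777 fell in GF skin, and 5755 rose and 6394 fell in SPF skin. Scaling to plain library totals moved the median gene by -0.51 and -0.58 on the log2 scale in GF and SPF skin, and gave 2795 higher and 9697 lower genes in GF skin and 3127 higher and 10106 lower in SPF skin. For GF against SPF skin with ethanol, 1914 genes were higher and 1702 lower, and on library totals 1420 and 2218. For the difference of the responses the counts were 1276 and 1524, and on library totals 1656 and 1151.

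Within each group the genes kept much the same order of level per transcript length. Lyz2 was first everywhere, at 119 ± 8.19 FPKM in GF MC903, 192 ± 9.13 in GF ethanol, 119 ± 16.6 in SPF MC903 and 185 ± 18.4 in SPF ethanol skin (SD, n = 3), and no library of it overlapped the next gene. The C1q chains followed, between 87.6 ± 6.95 FPKM for C1qa and 99.6 ± 12.7 for C1qb in GF MC903 skin, and between 37.3 ± 3.49 for C1qa and 59.1 ± 12.6 for C1qc in SPF ethanol skin. C1qb and C1qc overlapped in every group. Cd68 and Csf1r came next, and their order changed: Cd68 stood above Csf1r without overlap in both MC903 groups, while with ethanol they overlapped. At the low end were Adgre1, Fcgr1, Itgam and Mertk. Mertk was last in both MC903 groups, at 0.874 ± 0.193 FPKM in GF and 0.829 ± 0.202 in SPF skin, and Fcgr1 was last in both ethanol groups, at 0.941 ± 0.12 and 0.544 ± 0.179.

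**Figure D1:**
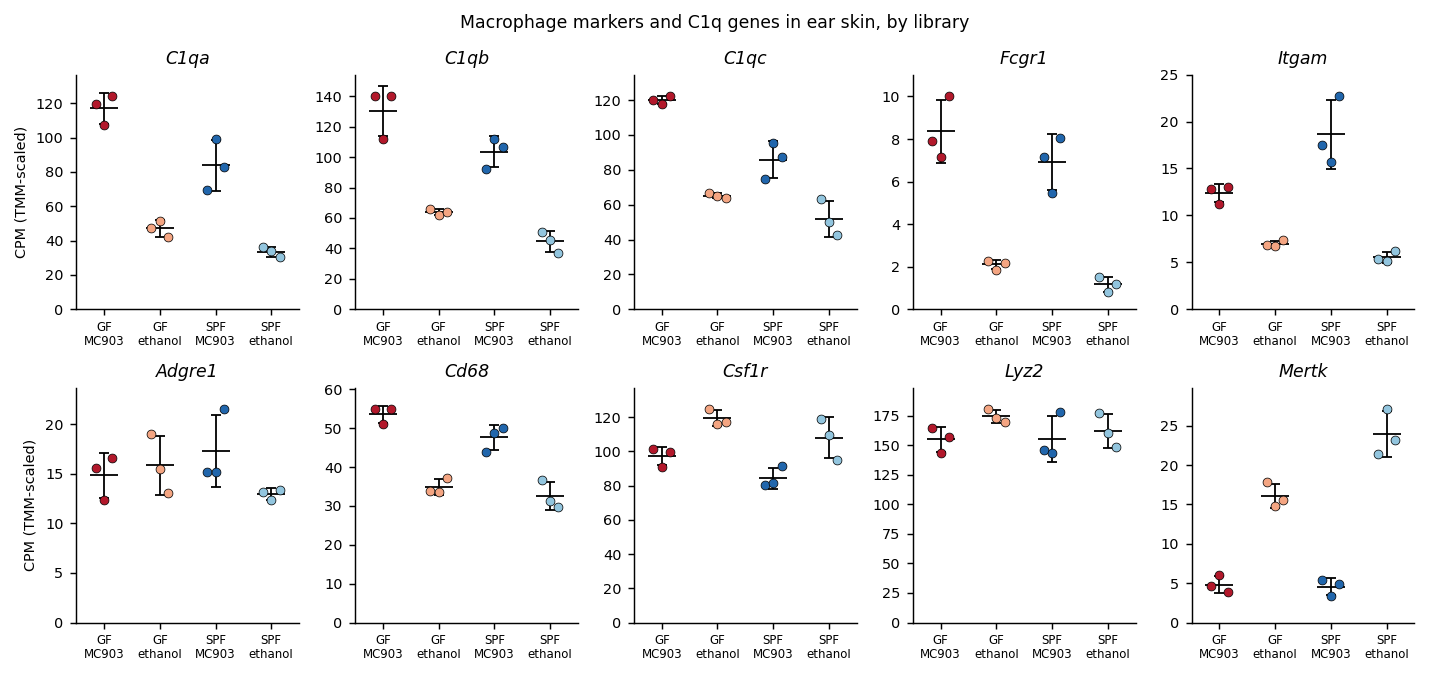
TMM-scaled CPM (linear axes from 0) of the 10 genes in each of the 12 libraries, with 1 point per library and the mean ± SD of each group. The 3 C1q genes, Fcgr1, Itgam and Cd68 stand higher with MC903 in both housings, Mertk and Csf1r lower, while Lyz2 in SPF skin and Adgre1 in GF skin overlap between treatments.

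Most of these genes rose with MC903 and 2 fell. In GF skin 6 of the 10 rose and 2 fell, where 33.4% and 35.1% of all tested genes did so (68.5% in either direction). The median log2 change of the 10 was 0.72, against -0.07 over all genes. In SPF skin 7 rose and 2 fell, against 35.0% and 38.8% of all genes (73.8% in either direction), with a median of 0.64 against -0.10. The C1q chains, Fcgr1, Itgam and Cd68 rose in both housings and Mertk and Csf1r fell in both, while Lyz2 was called in neither. Adgre1 was called in SPF and not in GF skin, and the difference between its responses was not called. In bulk tissue more cells of a type and more RNA per cell cannot be told apart. On library totals 4 rose and 4 fell in GF skin, where 2795 and 9697 of all 16466 tested genes did so. In SPF skin 4 rose and 3 fell by that scaling, where 3127 and 10106 of all did so.

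C1qa, the A chain, stood at 119.6, 107 and 124 CPM in GF MC903 libraries, against 47.6, 51.6 and 42.1 CPM in GF ethanol libraries. In SPF skin it stood at 69.4, 99.3 and 82.8 CPM with MC903, against 36.3, 34.0 and 30.4 CPM with ethanol. Every MC903 library was above every ethanol library of its housing, and the GF MC903 libraries were above all others. The rise was 1.31 in GF skin (SE 0.12, adjusted p = 1.41e-06) and 1.32 in SPF skin (SE 0.12, adjusted p = 8.96e-07), about 2.48-fold and 2.50-fold. Its size depended on the processing. Over 22 alternatives, left-out libraries included, it ran from 0.78 to 1.40 in GF and from 0.72 to 1.44 in SPF skin.

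C1qb, the B chain, had 139.9, 112 and 140.3 CPM in GF MC903 libraries and 65.6, 61.9 and 64.2 CPM in GF ethanol libraries. In SPF skin it had 91.96, 112 and 107 CPM with MC903 and 50.7, 45.7 and 37.3 CPM with ethanol. Its groups did not overlap between treatments in either housing, and GF MC903 4 lay at the level of SPF MC903 2. The rise was 1.03 (SE 0.12, adjusted p = 7.44e-06) in GF and 1.22 (SE 0.12, adjusted p = 1.26e-06) in SPF skin. Over the 22 alternatives it ran from 0.50 to 1.13 in GF and from 0.64 to 1.32 in SPF skin.

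C1qc, the C chain, had the smallest fold change of the 3. It had 120.1, 118 and 122 CPM in GF MC903 libraries and 66.6, 65.0 and 63.8 CPM in GF ethanol libraries, and 74.6, 95.4 and 87.6 CPM in SPF MC903 libraries against 63.0, 49.8 and 42.4 CPM in SPF ethanol libraries. Again no MC903 library fell among the ethanol libraries of its housing. The rise was 0.88 in GF skin (SE 0.12, adjusted p = 3.81e-05) and 0.73 in SPF skin (SE 0.12, adjusted p = 0.00015). On library totals the SPF rise of C1qc was 0.15 and was not called (adjusted p = 0.276), whereas C1qa and C1qb stayed called in both housings. The chains also moved against each other: C1qa made up 31.3% ± 0.311 of the summed FPKM of the chains in GF MC903 and 26.3% ± 2.06 in GF ethanol skin, and 30.1% ± 1.61 and 25.6% ± 1.73 in SPF skin (SD, n = 3). The share of C1qc was 33.1% ± 1.96 in GF MC903 and 37.4% ± 0.53 in GF ethanol skin, and 31.8% ± 0.266 and 40.0% ± 2.05 in SPF skin. These shares were not tested, and the libraries did not overlap between treatments for either chain in either housing.

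**Figure D2:**
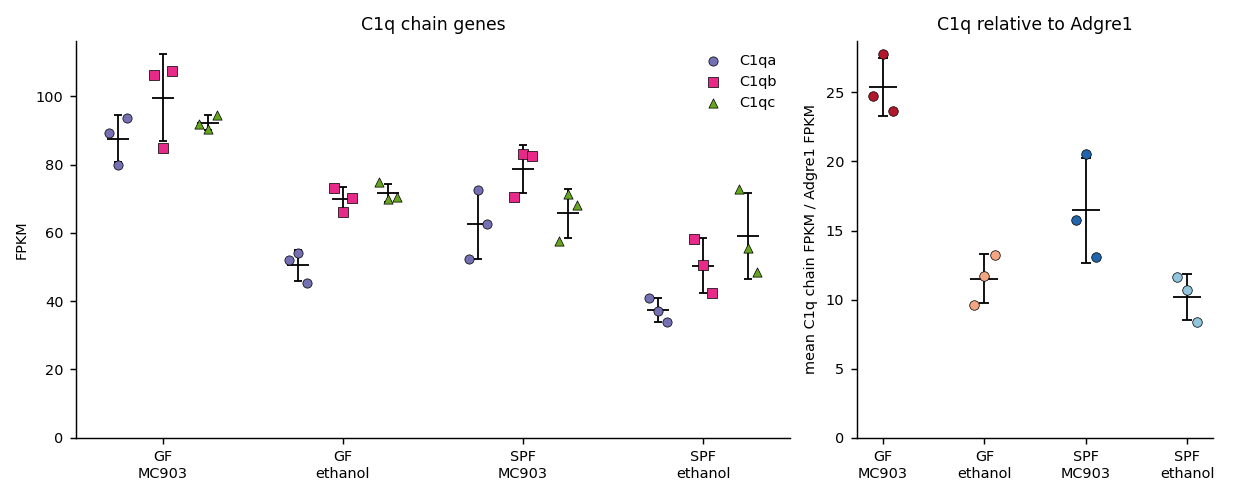
Left, FPKM of each C1q chain gene in the 12 libraries, and right, the mean FPKM of the 3 chains divided by the FPKM of Adgre1, both on linear axes from 0 with 1 point per library and the mean ± SD of each group. C1qc is above C1qb in the ethanol libraries and below it in the MC903 libraries other than GF MC903 4, and the ratio is highest in GF MC903 skin.

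The genes with the steepest changes were both receptors. Fcgr1 had 7.92, 7.14 and 10.03 CPM in GF MC903 libraries, against 2.29, 1.86 and 2.18 CPM in GF ethanol libraries. In SPF skin it had 7.17, 5.48 and 8.06 CPM with MC903, against 1.52, 0.804 and 1.20 CPM with ethanol. The MC903 groups overlapped each other and lay well above both ethanol groups. Its rise was 1.98 in GF skin (SE 0.22, adjusted p = 5.32e-06, 3.96-fold) and 2.55 in SPF skin (SE 0.23, adjusted p = 6.05e-07, 5.84-fold). Its estimated counts ran between 39 and 350 per library. Mertk went the other way, with 4.599, 6.00 and 3.87 CPM in GF MC903 libraries against 17.8, 14.9 and 15.5 CPM in GF ethanol libraries. In SPF skin it had 5.39, 3.39 and 4.90 CPM with MC903 against 21.4, 27.1 and 23.2 CPM with ethanol. The MC903 libraries of both housings overlapped, and the SPF ethanol libraries were the highest. Mertk fell by 1.73 in GF skin (SE 0.18, adjusted p = 3.83e-06) and by 2.39 in SPF skin (SE 0.19, adjusted p = 1.63e-07).

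Itgam had 12.8, 11.3 and 13.1 CPM in GF MC903 libraries and 6.86, 6.76 and 7.37 CPM in GF ethanol libraries. In SPF skin it had 17.5, 15.7 and 22.7 CPM with MC903 and 5.32, 5.11 and 6.16 CPM with ethanol. The 4 groups were separate, with SPF MC903 highest and SPF ethanol lowest. Itgam rose by 0.82 in GF skin (SE 0.13, adjusted p = 0.000148) and by 1.75 in SPF skin (SE 0.14, adjusted p = 1.55e-07). On library totals the GF rise was 0.31 and not called (adjusted p = 0.0665). Itgb2, which encodes the CD18 chain that pairs with CD11b, rose by 0.43 (SE 0.09, adjusted p = 0.000903) in GF and by 0.76 (SE 0.09, adjusted p = 6.71e-06) in SPF skin, though on library totals its GF change was -0.08. In the GENCODE M21 annotation 70.0% of the exon bases of Itgam are shared with Gm49368, a gene on the same strand. Gm49368 is not among the 24532 genes of the deposited table, so no split of reads between the pair is seen there. Whether it took part in the counting is not given, and the Itgam values are uncertain to that extent.

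Csf1r fell slightly in both housings. It had 101, 91.0 and 99.6 CPM in GF MC903 libraries and 125, 116 and 117 CPM in GF ethanol libraries, and 80.4, 81.4 and 91.5 CPM in SPF MC903 libraries and 119, 109.6 and 95.1 CPM in SPF ethanol libraries. The treatments did not overlap in either housing, with 91.5 and 95.1 CPM the nearest pair in SPF skin. The change was -0.30 in GF skin (SE 0.08, adjusted p = 0.0077) and -0.36 in SPF skin (SE 0.08, adjusted p = 0.0021). Both calls ended when the trend of each library over gene length was removed, with -0.05 (adjusted p = 0.64) and -0.08 (adjusted p = 0.403). Csf1r shares 17.9% of its exon bases with the antisense gene Hmgxb3, and the use of strand in counting is not given.

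Adgre1 did not follow the C1q genes. It had 15.6, 12.3 and 16.6 CPM in GF MC903 libraries against 19.0, 15.5 and 13.1 CPM in GF ethanol libraries, and 15.2, 15.1 and 21.5 CPM in SPF MC903 libraries against 13.1, 12.3 and 13.4 CPM in SPF ethanol libraries. The GF groups overlapped, and in SPF skin the MC903 libraries were all higher, SPF MC903 3 by the widest margin. The GF change was -0.10 (SE 0.17, adjusted p = 0.621) and the SPF rise 0.41 (SE 0.17, adjusted p = 0.0381). The SPF call was lost without SPF MC903 3 (0.23, adjusted p = 0.202) and without SPF ethanol 1, 2 or 3 (adjusted p = 0.0711, 0.0996 and 0.0636), and on library totals the SPF change was -0.16 (adjusted p = 0.403) and the GF change a called fall of 0.61 (adjusted p = 0.00682).

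Of the lysosomal genes, Cd68 had 54.9, 51.0 and 54.9 CPM in GF MC903 libraries against 33.7, 33.5 and 37.2 CPM in GF ethanol libraries, and 44.0, 48.8 and 50.1 CPM in SPF MC903 libraries against 36.6, 31.4 and 29.6 CPM in SPF ethanol libraries. Its treatments were separate in both housings, and it rose by 0.62 in GF skin (SE 0.09, adjusted p = 4.69e-05) and by 0.55 in SPF skin (SE 0.09, adjusted p = 0.000106). Neither call held on library totals, with 0.11 (adjusted p = 0.296) in GF and -0.03 (adjusted p = 0.792) in SPF skin, nor with the length trend removed, with 0.19 in both (adjusted p = 0.0834 and 0.0745). Lyz2 had 164, 144 and 157 CPM in GF MC903 libraries against 181, 173 and 169.9 CPM in GF ethanol libraries, and 146, 143 and 178 CPM in SPF MC903 libraries against 178, 160.1 and 149 CPM in SPF ethanol libraries. The GF libraries were all lower with MC903 and the SPF groups overlapped. The change was -0.17 (SE 0.09, adjusted p = 0.111) in GF and -0.06 (SE 0.09, adjusted p = 0.559) in SPF skin, and both became called falls with the length trend removed (-0.70 and -0.50) or on library totals (-0.68 and -0.64). Lyz2 and its near-identical neighbour Lyz1 can share reads, so both values are uncertain.

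**Figure D3:**
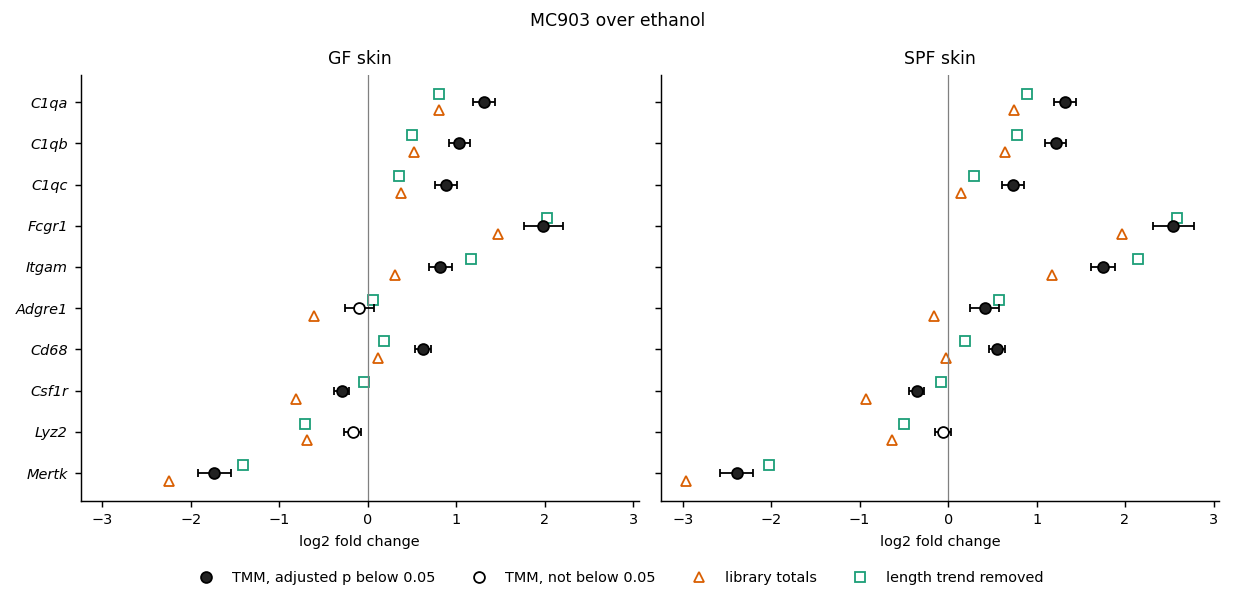
Log2 fold change of MC903 over ethanol for each gene in GF skin (left) and SPF skin (right), with circles for the TMM-scaled edgeR fit and bars of ± 1 SE, triangles for library totals and squares for the fit with the length trend removed. Fcgr1, Itgam, the C1q genes and Mertk keep their sign under all 3, whereas Cd68 and Adgre1 cross 0 in SPF skin on library totals.

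The responses of GF and SPF skin were then set against each other. Itgam was the 1 gene of the 10 whose response differed, being lower in GF skin by 0.93 (SE 0.19, adjusted p = 0.00599), while 17.0% of all genes differed, 7.75% being higher and 9.26% lower. Its difference was called under all 21 alternatives that could give one, with adjusted p between 6.57e-05 and 0.0206. Adgre1 had a difference of -0.51 (SE 0.23, adjusted p = 0.163), Fcgr1 of -0.56 (SE 0.31, adjusted p = 0.253) and Mertk of 0.65 (SE 0.26, adjusted p = 0.105), none of them called. For the C1q genes the differences were -0.01, -0.18 and 0.15 for C1qa, C1qb and C1qc (SE 0.17 each, adjusted p = 0.983, 0.5 and 0.603), none of them called. Itgb2 had -0.33 (SE 0.13, adjusted p = 0.099). Of the other cells that carry Itgam, 2 of 10 tested neutrophil genes had a higher response in GF skin and none a lower one. With MC903, 1 of the 10, Il1r2, was higher in GF than in SPF skin and 1, Stfa2l1, lower (20.8% and 20.9% of all genes). Stfa2l1 was lower by 1.355 (SE 0.43, adjusted p = 0.0238). The 15 genes listed summed to 175 to 244 CPM in GF MC903 and 158 to 176 in GF ethanol libraries. In SPF libraries they summed to 127 to 140.3 CPM with MC903 and 163 to 218 CPM with ethanol. S100a8 did not follow that sum in SPF skin, at 18.9 ± 1.61 CPM with MC903 and 0.472 ± 0.186 with ethanol. Of the 10 tested, 6 rose and 3 fell in SPF skin. None of the 15 neutrophil genes was at 0 in all 12 libraries, and their part in the Itgam result was not tested. Of 10 monocyte genes, none had a higher and 1, Nr4a1, a lower response in GF skin, and the median difference of the list was 0.18. The Nr4a1 call was lost when any of several single libraries was left out.

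Housing was also compared within each treatment. In MC903-treated skin 3 of the 10 genes, the C1q chains, were higher in GF than in SPF skin and Itgam was lower, against a background of 20.8% higher and 20.9% lower (41.7% in either direction), so the count itself was near that of all genes. C1qa was higher by 0.48 (SE 0.12, adjusted p = 0.00753), C1qb by 0.34 (SE 0.12, adjusted p = 0.0363) and C1qc by 0.48 (SE 0.12, adjusted p = 0.00708). The GF libraries were all above the SPF libraries for C1qa and C1qc, and for C1qb GF MC903 4 exceeded SPF MC903 2 by the least. Itgam was lower by 0.59 (SE 0.13, adjusted p = 0.00348) without overlap. The C1qb call was lost without GF MC903 1 (0.28, adjusted p = 0.123), GF MC903 5 (0.28, adjusted p = 0.12), GF ethanol 4 (0.33, adjusted p = 0.0511), SPF MC903 1 (0.26, adjusted p = 0.136) or SPF MC903 3 (0.36, adjusted p = 0.0663).

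With ethanol 3 genes were higher in GF than in SPF skin and 1 was lower, against 11.6% and 10.3% of all genes (22.0% in either direction). Fcgr1 was higher by 0.84 (SE 0.23, adjusted p = 0.0245), C1qb by 0.52 (SE 0.12, adjusted p = 0.0103) and C1qa by 0.49 (SE 0.12, adjusted p = 0.0158), each without overlap. C1qc was at 0.33 (SE 0.12, adjusted p = 0.0709), with SPF ethanol 1 close to the GF libraries. Mertk was lower in GF skin by 0.57 (SE 0.17, adjusted p = 0.0338), also without overlap. Single libraries decided several of these calls, and without GF ethanol 4 or SPF ethanol 3 the count of higher genes was 1. That of C1qa was lost without GF ethanol 4 (0.41, adjusted p = 0.0795) or SPF ethanol 3 (0.42, adjusted p = 0.0641). That of Fcgr1 was lost without GF ethanol 1, 4 or 5 (0.78, 0.91 and 0.82, adjusted p = 0.0691, 0.0536 and 0.056) or SPF ethanol 2 or 3 (0.64 and 0.85, adjusted p = 0.08 and 0.0634). That of Mertk was lost without GF ethanol 4 or 5 (-0.53 and -0.55, adjusted p = 0.125 and 0.0855) or SPF ethanol 2 or 3 (-0.47 and -0.59, adjusted p = 0.118 and 0.0713).

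The C1q genes are short, at the 10.3, 9.93 and 9.81 percentile of implied length among tested genes for C1qa, C1qb and C1qc. With the trend of each library over gene length removed, none of their housing differences was called: with MC903 they were 0.19, 0.04 and 0.19 for C1qa, C1qb and C1qc (adjusted p = 0.16, 0.816 and 0.203), and with ethanol 0.28, 0.31 and 0.12 (adjusted p = 0.093, 0.0861 and 0.492). Fcgr1, at the 46.6 percentile, was at 0.82 with ethanol (adjusted p = 0.0372), and Itgam, at the 81.3 percentile, at -0.52 with MC903 (adjusted p = 0.00438) in that fit. Mertk, at the 78.7 percentile, was at -0.46 with ethanol (adjusted p = 0.0763).

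**Figure D4:**
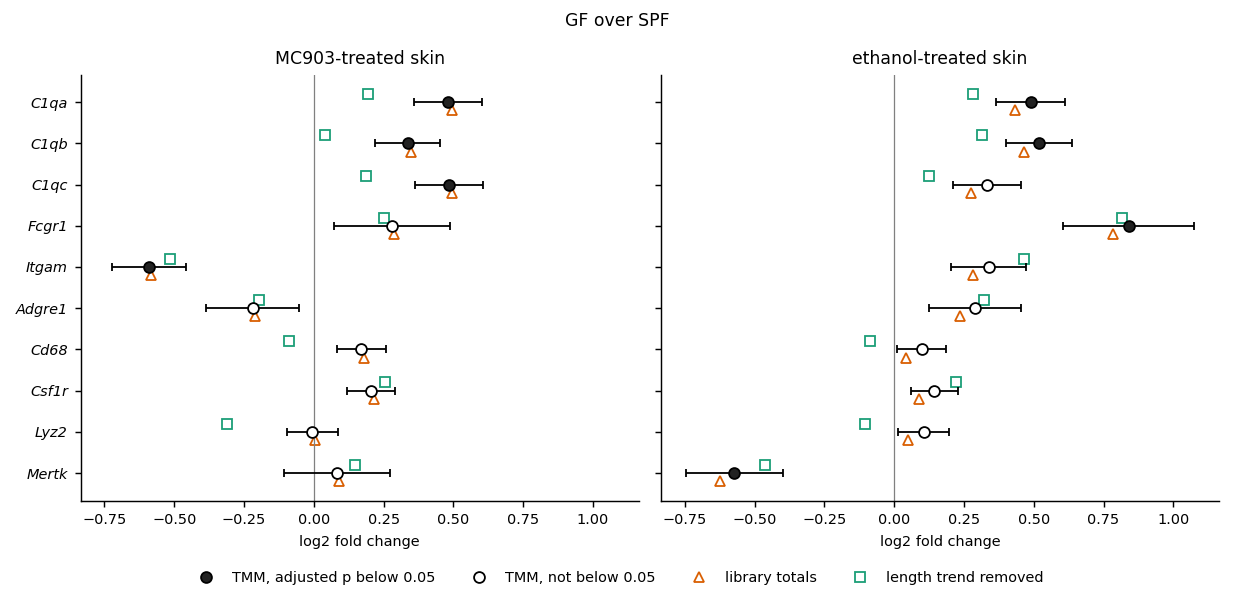
Log2 fold change of GF over SPF skin for each gene with MC903 (left) and with ethanol (right), with circles for the TMM-scaled edgeR fit and bars of ± 1 SE, triangles for library totals and squares for the fit with the length trend removed. Library totals change little here, while the squares of the C1q genes and of Lyz2 lie nearer to or below 0.

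A ratio of 2 genes within a library does not depend on how libraries are scaled, but it can depend on a trend over gene length. Adgre1 lay at the 60.6 percentile of implied length, far above the C1q chains. The ratios were not corrected for that trend, and its part in them was not tested. The mean FPKM of the 3 C1q chains was 24.8, 27.8 and 23.7 times that of Adgre1 in GF MC903 libraries, 9.64, 11.7 and 13.2 times in GF ethanol libraries, 15.7, 20.5 and 13.1 times in SPF MC903 libraries and 11.6, 10.7 and 8.35 times in SPF ethanol libraries. The ratio was higher with MC903 than with ethanol in both housings without overlap, and higher in GF than in SPF skin with MC903 without overlap, whereas with ethanol the housings overlapped. On the log2 scale the differences were 1.15 for the GF response, 0.68 for the SPF response, 0.65 for GF against SPF skin with MC903 and 0.18 with ethanol. The exact two-sided permutation p was 0.1 for the first 3, the smallest that 3 libraries against 3 can give, and 0.4 for the last, or 0.133 and 0.4 after Benjamini-Hochberg adjustment over these 4 comparisons. None could pass 0.05 in this design. Against Laptm5, a lysosomal gene of leukocytes, in place of Adgre1, the differences were 0.33, 0.62, 0.01 and 0.31 in the same order, so the housing difference with MC903 depended on the partner gene.

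The 10 genes were also set against Ptprc, which encodes CD45, the surface protein of all leukocytes. Ptprc itself fell with MC903, to 1.53, 2.61 and 2.21 CPM in GF MC903 libraries, against 26.2, 19.96 and 22.5 CPM in GF ethanol libraries, and to 3.90, 2.91 and 14.2 CPM in SPF MC903 libraries, against 22.8, 21.0 and 22.1 CPM in SPF ethanol libraries. SPF MC903 3 stood apart from the other SPF MC903 libraries. The change was -3.43 (SE 0.48, adjusted p = 4.03e-05) in GF and -1.67 (SE 0.43, adjusted p = 0.00375) in SPF skin, and -2.69 in SPF skin without SPF MC903 3. Of the 7 pan-leukocyte genes listed, Ptprc included, 4 rose and 2 fell in each housing, and on library totals 3 rose and 3 fell in GF skin and 3 rose and 2 fell in SPF skin. Arhgdib rose by 1.14 in GF and 1.11 in SPF skin, and Rac2 by 0.97 in GF and 1.34 in SPF skin. Relative to Ptprc all 10 genes were higher with MC903 without overlap in GF skin and 9 in SPF skin, as were 96.1% and 63.0% of all genes. None was lower in either housing, as were 0.0972% and 0.887% of all genes. Relative to Laptm5, which rose by 0.73 in GF and 0.45 in SPF skin, 3 of the 10 were higher and 4 lower in GF skin (12.7% and 69.7% of all genes), and 5 higher and 3 lower in SPF skin (20.7% and 55.7%). C1qa, C1qc and Fcgr1 were higher in both housings by this measure, and Mertk, Csf1r and Lyz2 lower in both. In MC903-treated skin 8 of the 10 were higher in GF than in SPF skin relative to Ptprc and none lower (58.1% and 0.14% of all genes), but none was higher and 5 were lower relative to Laptm5 (6.13% and 53.7%). With ethanol 3 were higher and 1 lower in GF skin relative to Ptprc (8.09% and 19.6%), and likewise relative to Laptm5 (8.22% and 28.2%). The exact p of each such ratio could not go below 0.1.

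Likeness of pattern was measured as the root mean square difference of log2 CPM, centred per gene, over the 12 libraries. Among 16456 other tested genes the ones nearest the mean of the C1q chains were Ten1 at 0.098, Il2rg at 0.10, Znrd1 at 0.10, Cyba at 0.102, Arhgdib at 0.105, Txn2 at 0.112, Ndufab1 at 0.112 and Alox5ap at 0.118. Il2rg encodes the common gamma chain of cytokine receptors, Cyba a subunit of the phagocyte oxidase, Ten1 a telomere protein, Znrd1 a subunit of RNA polymerase I, and Txn2 and Ndufab1 mitochondrial proteins. Of the other 7 genes, Cd68 was nearest to the C1q mean at 0.304, followed by Itgam at 0.425 and Adgre1 at 0.557, and Mertk was farthest at 1.64. Among those nearest to Itgam were Actg1 at 0.126, S1pr3 at 0.131, Trim16 at 0.14, Kyat3 at 0.141, Mina at 0.151, Mpzl2 at 0.157 and Tubb2a at 0.162, of which Actg1 encodes an actin and Tubb2a a tubulin.

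Partner genes of each receptor or protein were counted from lists drawn up for these roles. The counts of each list, and of the marker lists after them, stand beside the shares of all genes given above, 33.4% rising and 35.1% falling in GF skin and 35.0% and 38.8% in SPF skin, and on library totals beside the 2795 and 9697 genes in GF skin and the 3127 and 10106 in SPF skin. Among 11 tested genes of the CSF1R axis and the myeloid transcription factors, 3 rose and 2 fell with MC903 in GF skin (median 0.07) and 7 rose and 2 fell in SPF skin (median 0.51), but on library totals 1 rose and 7 fell in GF skin (median -0.44) and 2 rose and 3 fell in SPF skin (median -0.071). Il34, the CSF1R ligand made by keratinocytes, had 54.6 ± 4.47 CPM in GF MC903 and 68.4 ± 1.12 in GF ethanol skin, but 11.8 ± 2.42 in SPF MC903 and 56.3 ± 1.29 in SPF ethanol skin (SD, n = 3). It fell by 2.25 in SPF skin (SE 0.12, adjusted p = 6.05e-09) and was higher in GF than in SPF skin by 2.21 with MC903 (SE 0.12, adjusted p = 3.14e-07). The other CSF1R ligand, Csf1, had 48.2 ± 2.95 CPM in GF MC903 and 46.6 ± 1.07 in GF ethanol skin, and 58.5 ± 5.73 in SPF MC903 and 35.3 ± 3.89 in SPF ethanol skin, a difference of responses of -0.68 (SE 0.13, adjusted p = 0.00459). The transcription factor gene Maf fell by 0.35 in GF and 0.42 in SPF skin.

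Among 16 complement partners of C1q, 4 rose and 6 fell with MC903 in GF skin (median -0.20) and 5 rose and 5 fell in SPF skin (median -0.14). On library totals 3 rose and 11 fell in GF skin and 5 rose and 10 fell in SPF skin. Calr, which encodes calreticulin, a partner of C1q at cell surfaces, rose by 1.297 in GF (SE 0.09, adjusted p = 1.23e-07) and by 2.04 in SPF skin (SE 0.09, adjusted p = 1.72e-09). Masp1, a protease of the lectin pathway, fell by 2.104 in GF skin (SE 0.36, adjusted p = 0.000194) and by 1.52 in SPF skin (SE 0.32, adjusted p = 0.000998). With ethanol 9 of the 16 were higher in GF than in SPF skin and none lower, where 11.6% and 10.3% of all genes were. The median was 0.37, against 0.00 over all genes. Among the 9 was the central component C3, by 0.79 (SE 0.10, adjusted p = 0.000861). On library totals the count of higher genes was 7. With MC903, 4 were higher in GF skin and 3 lower, near the 20.8% and 20.9% of all genes. C1s1, a protease of the C1 complex, was higher by 0.66 (SE 0.12, adjusted p = 0.000717).

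Of 14 genes of the TAM receptors, their ligands and apoptotic cell uptake, 4 rose and 8 fell with MC903 in GF skin (median -0.32) and 4 rose and 9 fell in SPF skin (median -0.42), and on library totals 1 rose and 9 fell in GF skin and 3 rose and 11 fell in SPF skin. Megf10, an uptake receptor best known from glia, fell by 2.04 in GF (SE 0.33, adjusted p = 0.000129) and by 2.02 in SPF skin (SE 0.31, adjusted p = 7.67e-05). Timd4, a receptor for phosphatidylserine, rose by 2.80 in SPF skin (SE 0.45, adjusted p = 9.64e-05), and by 3.85 without SPF ethanol 1. In GF skin Timd4 rose by 1.15 (SE 0.445, adjusted p = 0.0361). Of 13 Fc receptor and adaptor genes, 9 rose and 1 fell in GF skin (median 0.47) and 11 rose and 1 fell in SPF skin (median 0.80); on library totals 4 rose and 4 fell in GF skin and 6 rose and 4 fell in SPF skin. Fcgr4, another activating IgG receptor, rose by 2.39 in GF (SE 0.50, adjusted p = 0.00104) and by 2.24 in SPF skin (SE 0.55, adjusted p = 0.00264). The gene that fell was Ms4a2, of the IgE receptor of mast cells, by 1.05 in GF and 1.27 in SPF skin.

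Of 7 tested integrins and their ligands, 4 rose and 2 fell in each housing, while on library totals 1 rose and 3 fell in GF skin and 1 rose and 2 fell in SPF skin. Icam1, a ligand of CD11b, rose by 0.77 in GF (SE 0.10, adjusted p = 2.95e-05) and by 0.90 in SPF skin (SE 0.10, adjusted p = 5.98e-06). Among 12 lysosomal and lysozyme genes 8 rose and 4 fell in GF skin and 7 rose and 3 fell in SPF skin, but on library totals 4 rose and 5 fell in GF skin and 3 rose and 6 fell in SPF skin. Ctsl, the protease cathepsin L, rose by 1.67 in GF and by 2.64 in SPF skin and was lower in GF than in SPF skin by 0.84 with MC903 (SE 0.08, adjusted p = 9.04e-06), while Gpnmb, a lysosomal glycoprotein gene, fell by 0.67 in GF and by 0.81 in SPF skin. Of 8 adhesion G protein-coupled receptor relatives of Adgre1, 1 rose and 6 fell in GF skin (median -0.83) and 2 rose and 5 fell in SPF skin (median -0.84), and on library totals 1 rose and 7 fell in each housing. Adgrg1 rose by 1.33 and 1.41 and Adgre4 fell by 1.81 and 2.63 in GF and SPF skin.

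Other markers of macrophages and of cells that share these genes were read beside the 10 genes. Of 17 further macrophage genes 9 rose and 2 fell with MC903 in GF skin and 8 rose and 3 fell in SPF skin, and on library totals 3 rose and 7 fell in GF skin and 6 rose and 7 fell in SPF skin. Aif1 rose by 2.05 in GF and 2.56 in SPF skin. The scavenger receptor gene Marco rose by 1.08 in GF and 3.54 in SPF skin. Cybb, of the phagocyte oxidase, fell by 1.04 in GF and 1.96 in SPF skin. The lipid carrier Apoe dominated the summed level of this list, at 2530 ± 61.8 CPM in GF MC903, 2332 ± 198 in GF ethanol, 1078 ± 97.7 in SPF MC903 and 2075 ± 206 in SPF ethanol skin. Of 13 tested dermal resident macrophage genes 7 rose and 4 fell in GF skin and 6 rose and 3 fell in SPF skin, but on library totals 3 rose and 5 fell in GF skin and 4 rose and 7 fell in SPF skin. The chemokine gene Ccl8 rose by 1.72 in GF skin and Cd209f by 1.49 in SPF skin, and the haemoglobin scavenger receptor gene Cd163 fell by 1.06 in GF and 1.39 in SPF skin. With ethanol Cd209f was higher in GF than in SPF skin by 0.73 (SE 0.16, adjusted p = 0.009) and Cd163 lower by 0.58 (SE 0.13, adjusted p = 0.0097).

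Of 10 monocyte genes 7 rose and 1 fell in GF skin and 5 rose and 1 fell in SPF skin, but on library totals 6 rose and 3 fell in GF skin and 2 rose and 3 fell in SPF skin. Chil3 rose by 2.44 in GF skin, by 3.42 without GF ethanol 5, and by 2.88 in SPF skin. The list summed to 403 to 429.9 CPM in GF MC903, 489.5 to 538 in GF ethanol, 379 to 481 in SPF MC903 and 387 to 439.6 CPM in SPF ethanol libraries. Of 10 tested neutrophil genes 7 rose and 2 fell in GF skin and 6 rose and 3 fell in SPF skin, and on library totals 7 rose and 3 fell in GF skin and 5 rose and 3 fell in SPF skin. S100a8 rose by 6.08 in GF skin, by 7.02 without GF ethanol 5, and by 5.32 in SPF skin. Stfa2l1 had 2.65, 4.19 and 3.16 CPM in SPF MC903 libraries, against 0, 0.0619 and 0 CPM in SPF ethanol libraries, where its estimated counts were 0, 3 and 0. It rose in GF skin as well, by 5.42 (SE 0.715). Of 13 Langerhans and dendritic cell genes 2 rose and 3 fell in GF skin and 2 rose and 4 fell in SPF skin, and on library totals 1 rose and 9 fell in each housing. With MC903, 7 of them were higher in GF than in SPF skin and none lower, where 20.8% and 20.9% of all genes were, and with ethanol 6 were higher and 1 lower, where 11.6% and 10.3% were. The dendritic list summed to 1799 to 1853 CPM in GF MC903, 1343 to 1669.9 in GF ethanol, 906 to 1023 in SPF MC903 and 856 to 1059 CPM in SPF ethanol libraries, so the GF libraries were above the SPF libraries under both treatments. None of the monocyte, neutrophil or dendritic markers was at 0 in all 12 libraries, and of 9 eosinophil genes Ear6 was at 0 in every library. The part of these cells in the C1q, Fcgr1 and Mertk results was not tested.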

How the data were processed

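Bulk RNA sequencing of mouse ear skin gave 12 libraries in 4 groups of 3. Per the labels' protocols, total RNA was extracted with a kit for fibrous tissue and made into TruSeq libraries for a HiSeq4000. HISAT2 2.1.0, StringTie 1.3.4d, Trimmomatic and bcl2fastq 2.20.0 are named, with the build mm10, in the submitters' processing notes. Their settings, annotation and use of strand were not given in the sources used here. The authors' deposited table holds, per the file headers, both an estimated count and an FPKM value of every gene in each library. The estimated counts were tested as deposited, being whole numbers, and the deposited FPKM values served for levels per length, ratios and alternatives.

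All 12 libraries entered 1 edgeR 4.0.16 quasi-likelihood fit (R 4.3.3) with 1 coefficient for each group, TMM scaling and the filterByExpr filter (minimum count 10, minimum total 15). It kept 16466 of 24532 genes, and 4221 were at 0 in every library. Every adjusted p in the text not named otherwise is from this test or its stated alternative, with Benjamini-Hochberg adjustment at 0.05. Mean TMM factors were 0.831 in GF MC903, 1.19 in GF ethanol, 0.825 in SPF MC903 and 1.23 in SPF ethanol libraries. Totals of 36358294 to 48225425 limit precision for the lowest genes. Replicates differed beyond sampling noise (chi-square per degree of freedom 17.22 to 44.91 in 12 pairs), so each counted once. On simulated data for the SPF response, run on 16237 genes, the fit recovered 79 of 100 genes changed by 1 and 86 of 98 changed by 2 on the log2 scale. The simulation changed 200 genes, evenly up and down, and kept the others level. In the data most genes were called, so the recovery does not bear on the scaling between treatments. Ratios used exact permutation tests. Alternatives used DESeq2 1.42.0 and limma 3.58.1, other scalings, no filter, a replicate block, removal of the length trend and leaving out each library.

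The 10 genes and the 19 companion and marker lists were chosen with earlier results of these data known. Named from each list were the called genes with the largest rise and the largest fall in each comparison, or some of them, and Itgb2, chosen for its role. Of 214 listed genes 212 were in the table. Identifiers matched RefSeq (GRCm38.p6) for 24462 genes, which has the coordinates of mm10. Likeness used log2 of CPM plus 0.1. A few genes that the naming rules select are not reported here.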

Additional observations from a re-analysis of the deposited data

Results flagged for a closer look

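The response to MC903 differed between housings, by the edgeR test of the difference itself (GF minus SPF, log2), for 1 of the 10 genes. It differed for 37 of 191 other tested genes of the companion and marker lists, 18 with a higher and 19 with a lower response in GF skin. Among all tested genes 17.0% differed, 7.75% being higher and 9.26% lower, so the count of 37 was near that share. Of the 37 genes, 9 follow after Itgam. Itgam had a difference of -0.93 (SE 0.19, adjusted p = 0.00599). It rose in both housings and by less in GF skin.

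Il34, a CSF1R ligand, had a difference of 1.93 (SE 0.16, adjusted p = 4e-05), with 11.8 ± 2.42 CPM in SPF MC903 skin below the other groups. Csf1, the other ligand, had -0.68 (SE 0.13, adjusted p = 0.00459). The lipid carrier Apoe had 1.06 (SE 0.14, adjusted p = 0.000414), again with SPF MC903 skin the lowest at 1078 ± 97.7 CPM. Calr, the calreticulin gene, had -0.74 (SE 0.13, adjusted p = 0.00227), and Cybb, of the phagocyte oxidase, had 0.92 (SE 0.23, adjusted p = 0.0166). The Cybb call was lost with limma on log2(FPKM + 1) (0.47, adjusted p = 0.0539).

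The protease Ctsl had a difference of -0.97 (SE 0.11, adjusted p = 0.000199), with 1082 ± 20.8 CPM in GF MC903, 340 ± 19.9 in GF ethanol, 1935 ± 151 in SPF MC903 and 310 ± 24.9 in SPF ethanol skin (SD, n = 3). The complement gene C3 had -1.001 (SE 0.14, adjusted p = 0.000799), with 207 ± 17.0 CPM in GF MC903, 200.1 ± 21.7 in GF ethanol, 241 ± 31.7 in SPF MC903 and 116 ± 5.51 in SPF ethanol skin. The scavenger receptor gene Marco had -2.47 (SE 0.56, adjusted p = 0.0106) at 1.25 ± 0.256, 0.591 ± 0.203, 2.67 ± 0.913 and 0.227 ± 0.108 CPM in the same order of groups. Nr4a1, a transcription factor gene of patrolling monocytes, had -1.01 (SE 0.27, adjusted p = 0.0238), and its call was lost without GF MC903 4 (-0.96, adjusted p = 0.0523), GF ethanol 4 (-0.85, adjusted p = 0.0624), GF ethanol 5 (-0.97, adjusted p = 0.0539), SPF MC903 3 (-0.896, adjusted p = 0.0577), SPF ethanol 2 (-0.99, adjusted p = 0.054) or SPF ethanol 3 (-0.896, adjusted p = 0.0568).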

How the results depend on the processing

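Of 10 settings tried beside leaving out libraries, DESeq2-type scaling, DESeq2 itself, no filter on low counts and a fit of the compared groups alone moved no count of genes by over 1.5 times. DESeq2 also called C1qc between the ethanol groups (0.34, adjusted p = 0.0298), and the fit of the compared groups alone called Lyz2 in GF skin (-0.17, adjusted p = 0.0411). On library totals, limma on log2(FPKM + 0.1) and limma on log2(FPKM + 1), in that order, the 10 genes had 4, 4 and 4 higher in the SPF response and 4, 4 and 4 lower in the GF response. Over all genes the SPF response then had 3127, 3186 and 3191 higher and 10106, 10145 and 10116 lower, and the GF response 2795, 2841 and 2836 higher and 9697, 9837 and 9774 lower. In SPF skin Adgre1 turned to -0.16, -0.17 and -0.14, Cd68 to -0.028, -0.00282 and -0.00288 and Laptm5 to -0.13, -0.12 and -0.12, and in GF skin Itgb2 to -0.082, -0.083 and -0.073. With limma on log2(FPKM + 1) 1 of the 10 genes, Mertk, had a higher response in GF skin (0.56, adjusted p = 0.0343), and 2635 genes were lower in GF skin with ethanol. With the length trend removed, the ethanol housing comparison had 1181 genes higher and 944 lower and 0 of the 10 lower. The MC903 one had 1 of the 10 higher, not a C1q chain, and 2 lower, Itgam among them. The share of all genes in that MC903 fit is not given here, so its count cannot be set against a background. With Laptm5 in place of Ptprc, 5 genes were higher and 3 lower in the SPF response, 3 and 4 in the GF response, and 0 and 5 in GF against SPF skin with MC903.

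Leaving out 1 library at a time left between 1 and 4 genes higher and 0 and 1 lower in the ethanol housing comparison, where all genes gave 768 to 2121 higher and 707 to 1860 lower, and between 3 and 6 genes higher relative to Ptprc. All genes gave 768 higher and 707 lower without GF ethanol 4, 1245 and 1088 without SPF ethanol 3, and 1074 lower without SPF ethanol 2. The count of 6 relative to Ptprc came without GF ethanol 1. A left-out library leaves 2 in its group, whose spread the fit pools with the others.

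Same-numbered libraries of a housing had correlations of -0.0225 to 0.14 over 6 pairs. Each SPF MC903 library correlated best with the SPF ethanol library of its own number, while no GF MC903 library did so, and the labels name no shared source, so the libraries were taken to share only a number. With the replicate block the GF response had 6 of the 10 genes higher and 2 lower and the SPF response 7 and 2, and no call on the 10 genes changed. With block and length trend removal together C1qc in SPF skin was at 0.30 (adjusted p = 0.0709). The block gives no test of housing within a treatment.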
